A study of Mus musculus with 4 samples.

Results

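The genes described here are 10 targets, feedback inhibitors and ligands of canonical Wnt signalling, chosen by name from the 25965 genes listed in an RNA-seq table of 4 libraries. They are the target genes and feedback regulators Axin2, Sp5, Nkd1, Notum, Dkk1 and Lgr5, the transcription factors Lef1 and Tcf7, and the ligands Wnt3 and Wnt3a. Of these, 5 (Axin2, Lef1, Tcf7, Nkd1 and Wnt3) passed a filter on low values, a mean log2 CPM (counts per 1e6 reads) over the 4 libraries of at least 0, as did 13264 genes in all. The other 5 had few or no reads in at least 1 library and are given by their reads.

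Wnt ligands are lipid-modified secreted proteins that bind Frizzled receptors and Lrp co-receptors. Binding halts the complex of Axin, Apc and the kinase GSK3 that marks beta-catenin for destruction, and beta-catenin then enters the nucleus and acts through the TCF/LEF factors. Many targets of the pathway, Axin2, Nkd1, Notum and Dkk1 among them, encode its own inhibitors. In mouse embryonic stem cells (mESCs) an inhibitor of GSK3 is part of the 2i medium, where it acts in place of a Wnt signal downstream of the receptors.

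The cells were female mESCs from FVB/NJ dams mated with CAST/EiJ sires, and the deposited values combine both alleles. The day 0 library came from cells in 2i medium with LIF, harvested before any transduction. The 3 day 6 libraries came from cells moved stepwise out of 2i and LIF into serum-containing medium, transduced with a retroviral short hairpin RNA on day 2 and kept in puromycin from day 3. The hairpin was a non-silencing control (Nons) or 1 of 2 hairpins against Smarca4, named Smarca4.4 and Smarca4.6, and Smarca4 encodes an ATPase of the BAF chromatin remodelling complex. Besides the GSK3 inhibitor, 2i holds an inhibitor of MEK. Differentiation time, serum, loss of both inhibitors and of LIF, transduction and selection all separate Nons day 6 from day 0. These cannot be told apart. Groups follow the sample titles, since a genotype field names Smarcc as the target in every day 6 library, Nons included.

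Each group holds 1 library, so differences could not be set against replicates and no p-value is given. Depth was 18599402 reads at day 0 and 36495574 to 47143738 reads at day 6. The floor was set at 3 reads, which correspond to 0.161 CPM at day 0 and 0.0636 to 0.0822 CPM at day 6. The 95% intervals are exact (Clopper-Pearson), cover counting error only and compare 2 libraries, not 2 conditions. A lower level in bulk RNA can mean fewer expressing cells or less RNA per cell, which cannot be told apart. Summed markers of pluripotent cells were 3410 CPM at day 0 and 820 to 1100 CPM at day 6, with 6 of 7 genes at least 2-fold lower in Nons. Pou5f1, the gene that was not lower (724 CPM at day 0, 915 CPM in Nons), made up most of the day 6 sums. Summed fibroblast-like and smooth muscle markers (7 genes, 5 at least 2-fold higher in Nons) were 7.26 CPM at day 0 and 690 to 1090 CPM at day 6, mostly from Tagln and Cnn1. Neural markers (4 genes) summed to 169 CPM at day 0 and 441 to 481 CPM at day 6 because of Nes (43.7 CPM at day 0, 380.0 CPM in Nons), while Tubb3, Pax6 and Sox1 were lower in Nons than at day 0. Markers of extra-embryonic endoderm (5 genes, with Afp at 1 to 3 reads) summed to 7.9 CPM at day 0 and 26.6 to 32.4 CPM at day 6. Most of the day 6 sums came from Dab2 (1.83 CPM at day 0, 22.1 CPM in Nons). Gata4 was also higher in Nons (0.914 and 2.23 CPM), while Gata6 was lower (3.55 and 0.612 CPM) and Sox17 was similar (1.45 and 1.62 CPM). Primitive streak markers (8 genes) summed to 16.4 CPM at day 0 and 31.2 to 35.5 CPM at day 6. Eomes was higher in Nons (7.63 and 33.9 CPM), as was Tbx6 (0 and 25 reads). T (5.86 and 0.393 CPM), Gsc (1.83 and 0.219 CPM) and Mixl1 (0.806 and 0.284 CPM) were lower. Of 4 Y-linked genes, 3 had reads in each day 6 library and none had any at day 0, although the cells are labelled female. The part of these other cell types in the differences between day 0 and day 6 was not tested.

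The 22-base guide strands of the hairpins are shown because they define the treated libraries. Written as DNA from 5′ to 3′, with capitals for bases that pair with Smarca4 RNA, they are as follows.
Smarca4.4 guide: TTTATTACTGTCTGACTCCAGT
Smarca4.6 guide: TTGCATAATAGTGTTCATCAGT
All 22 bases of each guide pair. The Smarca4.4 site lies in the 3′ UTR in exon 34 (chr9:21703327-21703348, mm10, plus strand) and is present in 3 of 4 annotated transcripts. The Smarca4.6 site lies in the coding sequence in exon 22 (chr9:21670504-21670525) and is present in 4 of 4. In a search of annotated transcripts for all 22 bases, 0 other genes, and so none of the Wnt genes, held either full site. Shorter matches were not sought, so this search does not cover partial pairing with other RNAs.

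Smarca4 itself stood at a log2 CPM of 7.93 before transduction, and at day 6 at 7.84 (Nons), 7.04 (Smarca4.4) and 7.44 (Smarca4.6). It was therefore lower than in Nons with both hairpins, at 57.3% of the Nons level with Smarca4.4 and 75.8% with Smarca4.6. The targeted RNA differed between the hairpins by -0.40 (-0.45 to -0.35), Smarca4.4 being the lower.

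Upstream sequence is shown for 3 of the genes because TCF/LEF factors are known to bind CTTTGAT and CTTTGAA. These letters, or their reverse complements ATCAAAG and TTCAAAG, were sought on both strands from 250 bases before to 50 bases after each RefSeq start (GRCm38.p6). Of the 10 genes, 8 had an entry, with 12 windows between them, and 2 windows held a match. Among 32851 windows of all genes, CTTTGAT was present in 3.73%, CTTTGAA in 5.14% and either in 8.65%. The bases before the start are printed 5′ to 3′ on the strand of the gene, with the match in capitals. Sp5 (chr2:70474673-70474922, plus strand) has CTTTGAT starting 104 bases before the start, Dkk1 (chr19:30549497-30549746, minus strand) has CTTTGAA starting 117 bases before it, and Axin2 (chr11:108920099-108920348, plus strand), shown as the best known target, has no match.
Sp5: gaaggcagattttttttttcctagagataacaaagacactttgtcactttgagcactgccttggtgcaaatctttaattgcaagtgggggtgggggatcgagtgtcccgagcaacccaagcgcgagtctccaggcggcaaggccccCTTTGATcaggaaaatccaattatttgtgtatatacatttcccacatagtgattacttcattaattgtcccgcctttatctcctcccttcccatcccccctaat
Dkk1: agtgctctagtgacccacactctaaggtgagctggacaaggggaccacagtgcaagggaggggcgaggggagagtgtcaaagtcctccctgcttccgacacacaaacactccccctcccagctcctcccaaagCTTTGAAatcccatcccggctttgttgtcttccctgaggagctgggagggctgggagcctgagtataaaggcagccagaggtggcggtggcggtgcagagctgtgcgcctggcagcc
Axin2: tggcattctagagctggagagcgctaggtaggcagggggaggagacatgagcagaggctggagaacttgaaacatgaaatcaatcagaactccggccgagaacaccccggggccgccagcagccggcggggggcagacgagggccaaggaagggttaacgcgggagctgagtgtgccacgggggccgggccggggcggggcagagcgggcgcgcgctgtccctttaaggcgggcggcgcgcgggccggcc
The Axin2 sequence is 69.2% G or C with 24 CG pairs, against 46.0% and 6 CG pairs for Sp5 and 60.8% and 6 for Dkk1. A match is a description of letters and is no evidence of binding, and the absence of one covers this window only. Some RefSeq starts lie inside the gene spans of the deposited values. For Dkk1 that span reaches 30549665, so part of the printed sequence, its match included, lies within it.

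Between day 0 and Nons day 6, the genes did not move together. Axin2, Lef1, Sp5 and Notum were lower at day 6, and Tcf7, Nkd1 and Wnt3 were higher. Sp5 and Notum went from well expressed to at or near the floor, whereas Axin2 and Lef1 were still well read, Axin2 at 19.9% of its day 0 level. Of the 5 genes that passed the filter, 2 were at least 2-fold higher (Nkd1 and Wnt3), against 19.6% of all genes kept, and 2 were at least 2-fold lower (Axin2 and Lef1), against 12.3%. Sp5 and Notum did not pass it and are not in these counts. The median difference of the 5 genes was 0.74 on the log2 scale, that of Tcf7, and the median of all genes kept was 0.031.

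**Figure D1:**
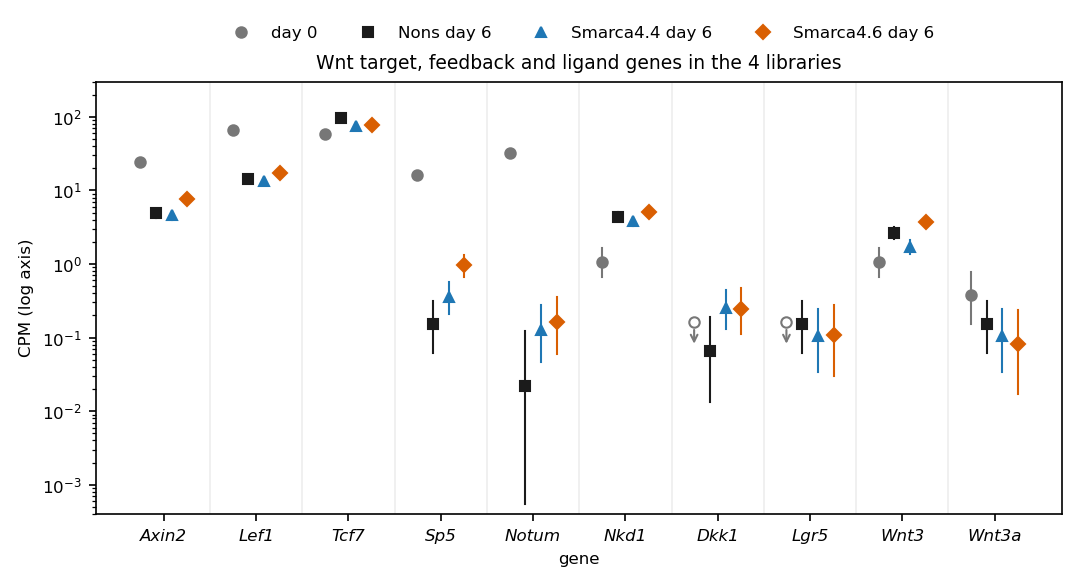
CPM (vertical log axis) of each of the 10 genes (horizontal axis), with 1 symbol per library (grey circle day 0, black square Nons, blue triangle Smarca4.4, orange diamond Smarca4.6) and bars for exact 95% counting intervals. Open circles with an arrow mark 0 reads at day 0 (Dkk1 and Lgr5), drawn at the 0.161 CPM of 3 reads. Day 0 lies above the day 6 libraries for Axin2, Lef1, Sp5 and Notum, and below them for Tcf7, Nkd1 and Wnt3.

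Axin2 is a scaffold of the beta-catenin destruction complex and a feedback inhibitor that responds to Wnt in most tissues (chr11:108920349-108950783, plus strand). It was read 455 times at day 0, and 223 (Nons), 216 (Smarca4.4) and 275 (Smarca4.6) times at day 6, which are 24.5, 4.87, 4.58 and 7.54 CPM. The day 0 library was highest, and Smarca4.6 was the highest of the day 6 libraries. Nons was 5.02-fold lower than day 0, a log2 difference of -2.33 (-2.57 to -2.09). Exons of Gm11670 on the opposite strand cover 3.8% of Axin2 exon bases. Gm11670 was read 27 times at day 0, and 14 (Nons), 12 (Smarca4.4) and 21 (Smarca4.6) times at day 6.

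Sp5 encodes a zinc finger factor that represses a share of Wnt targets and is itself an immediate target (chr2:70474923-70477729, plus strand). It was read 297 times at day 0, and 7 (Nons), 17 (Smarca4.4) and 35 (Smarca4.6) times at day 6 (16, 0.153, 0.361 and 0.959 CPM). The day 6 libraries were all far below day 0, and Nons was the lowest of them. The difference between Nons and day 0 was -6.71 (-8.03 to -5.64), or 104-fold lower. With 1 CPM added to every value before taking the logarithm it was -3.88, because that sum compresses differences near the floor.

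Notum encodes a secreted enzyme that removes the lipid from Wnt proteins and so inactivates them (chr11:120653788-120661175, minus strand). It was read 597 times at day 0, and 1 (Nons), 6 (Smarca4.4) and 6 (Smarca4.6) times at day 6 (32.1, 0.0219, 0.127 and 0.164 CPM). At day 0 only Lef1 and Tcf7 had a higher CPM, and at day 6 it was almost unread. From the single Nons read, the difference from day 0 was -10.52, with a wide counting interval of -15.83 to -8.04, and it was -5.02 with 1 CPM added. Exons on the opposite strand, those of Notumos and Myadml2os, cover 29.4% and 8.72% of Notum exon bases, and without a stated strand setting their reads cannot be told from those of Notum.

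Nkd1 (naked cuticle 1) binds Dishevelled, the relay protein below the receptors, and dampens the signal (chr8:88521344-88594887, plus strand). It was read 20 times at day 0, and 201 (Nons), 179 (Smarca4.4) and 185 (Smarca4.6) times at day 6 (1.08, 4.39, 3.80 and 5.07 CPM). Although a feedback inhibitor like Axin2, it was lowest at day 0, and Nons was 4.08-fold higher, a difference of 2.03 (1.36 to 2.77).

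Dkk1 encodes a secreted antagonist that occupies the Lrp co-receptors (chr19:30545863-30549665, minus strand), and was read 0 times at day 0, and 3 (Nons), 12 (Smarca4.4) and 9 (Smarca4.6) times at day 6. These day 6 levels were 0.0656, 0.255 and 0.247 CPM. Day 0 and Nons were both at or under 3 reads, so no fold is given between them.

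Lgr5 encodes a receptor for R-spondins, secreted proteins that amplify Wnt signalling, and marks stem cells of the intestine and other tissues (chr10:115450311-115587780, minus strand). It was read 0 times at day 0, and 7 (Nons), 5 (Smarca4.4) and 4 (Smarca4.6) times at day 6. The 0.153 CPM of Nons lies below the 0.161 CPM of 3 reads at day 0. It also lies below the 0.198 CPM that the exact interval of 0 reads allows there. A difference was therefore not detectable at this depth.

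Lef1 and Tcf7 encode TCF/LEF factors that bring beta-catenin to DNA, and Lef1 is also a common target of the pathway. Lef1 (chr3:131110471-131224356, plus strand) was read 1229 times at day 0, and 647 (Nons), 641 (Smarca4.4) and 625 (Smarca4.6) times at day 6, which are 66.1, 14.1, 13.6 and 17.1 CPM. Its order of levels was that of Axin2, and Nons was 4.67-fold lower than day 0, a difference of -2.22 (-2.36 to -2.09). Exons of Gm43352 on the opposite strand cover 13.7% of its exon bases.

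Tcf7 (chr11:52252371-52283014, minus strand) was read 1076 times at day 0, and 4435 (Nons), 3563 (Smarca4.4) and 2818 (Smarca4.6) times at day 6, which are 57.9, 96.9, 75.6 and 77.2 CPM. It moved the other way from Lef1: Nons was the highest library and day 0 the lowest. The Nons level was 1.68-fold that of day 0, a difference of 0.74 (0.65 to 0.84) that stays under 2-fold.

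The ligand Wnt3 is known for its part in forming the primitive streak of the embryo (chr11:103774150-103817957, plus strand). It was read 20 times at day 0, and 121 (Nons), 80 (Smarca4.4) and 135 (Smarca4.6) times at day 6 (1.08, 2.64, 1.70 and 3.70 CPM). All day 6 libraries lay above day 0, and Nons was 2.46-fold higher, a difference of 1.30 (0.61 to 2.06). Its close relative Wnt3a, which sustains posterior mesoderm in the embryo (chr11:59248033-59290752, minus strand), was read 7 times at day 0, and 7 (Nons), 5 (Smarca4.4) and 3 (Smarca4.6) times at day 6. These 0.0822 to 0.376 CPM are close to the floor, and the difference between Nons and day 0, -1.30 (-3.04 to 0.44), was not detectable at this depth. No stretch of 75 bases, the read length, is shared between the annotated transcripts of Wnt3 or Wnt3a and any other gene.

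For Nkd1 and Wnt3, each read 20 times at day 0, the size of the difference depends on how low values are treated. With 1 CPM added the differences were 1.38 and 0.81, so Nkd1 still reached 2-fold and Wnt3 no longer did.

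Levels of different genes were compared per length, as CPM per kb of exon. At day 0 the order was Tcf7 (22), Notum (13.3), Sp5 (7.60), Lef1 (7.52) and Axin2 (4.44), followed by Wnt3, Nkd1 and Wnt3a at 0.35 or less. Sp5 and Lef1 were not separated by their counting intervals, nor were Wnt3, Nkd1 and Wnt3a. In Nons, Tcf7 (36.9) was followed at a distance by Lef1 (1.61), Nkd1 (0.964), Axin2 (0.885) and Wnt3 (0.86), the last 3 of which overlapped in their intervals. In Smarca4.6 the values of Axin2 (1.37), Wnt3 (1.20) and Nkd1 (1.11) were likewise not separated, since the interval of each overlapped that of the next and those of Axin2 and Nkd1 overlapped too.

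The comparisons of the Smarca4 hairpins with Nons ask whether Wnt genes differ at day 6 when Smarca4 is reduced. Both comparisons use the same Nons library, so the values are given side by side and a shared direction is not independent. Of the 5 genes that passed the filter, 0 were at least 2-fold higher and 0 at least 2-fold lower with either hairpin. Among all genes kept, 0.882% were at least 2-fold higher and 0.309% lower with Smarca4.4, and 1.03% higher and 0.799% lower with Smarca4.6. The median of the 5 genes was -0.21 with hairpin Smarca4.4, where 0 of 5 were above 0, and 0.28 with Smarca4.6, where 4 of 5 were, against 56.5% and 58.9% of all genes kept. The medians of all genes kept were 0.038 and 0.064. Fibroblast-like and smooth muscle markers summed to 1090 CPM in Nons, 809 CPM in Smarca4.4 and 690 CPM in Smarca4.6. The median differences of the 6 kept were -0.37 and -0.32. In the same order, neural markers summed to 445, 441 and 481 CPM, and extra-embryonic endoderm markers to 26.6, 32.4 and 32.3 CPM. The part of these cell types in the hairpin differences was not tested.

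Axin2 in Smarca4.4 differed from Nons by -0.089 (-0.37 to 0.19), whereas in Smarca4.6 it was 0.63 higher (0.37 to 0.89), or 1.55-fold. Among all genes kept, 4.64% had a more positive difference in Smarca4.6 than Axin2. Lef1 was likewise near the Nons level in Smarca4.4, at -0.056 (-0.22 to 0.10), and was 0.28 (0.12 to 0.44) above it in Smarca4.6.

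Tcf7 was lower than Nons in both hairpin libraries, and the differences were -0.36 (-0.42 to -0.29) with Smarca4.4 and -0.33 (-0.40 to -0.26) with Smarca4.6. It was the only one of the 5 with both intervals below 0. Nkd1 differed by -0.21 (-0.51 to 0.088) and 0.21 (-0.089 to 0.50), which counting error covers in both cases.

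Wnt3 lay on opposite sides of Nons. It was -0.64 (-1.07 to -0.22) with Smarca4.4 and 0.48 (0.12 to 0.85) with Smarca4.6, and neither interval includes 0. With no second library of either hairpin, this opposition has no replicate check.

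The lowly read targets Sp5, Notum and Dkk1 were above Nons in both hairpin libraries, from 7 reads or fewer in Nons. Sp5 was 1.24 (-0.11 to 2.75) higher in Smarca4.4 and 2.65 (1.46 to 4.06) higher in Smarca4.6, or 6.27-fold, but 35 reads in Smarca4.6 are still 0.959 CPM against 16 CPM at day 0. With 1 CPM added these differences were 0.24 and 0.76. Notum, on 6, 6 and 1 reads, gave 2.54 (-0.50 to 8.07) and 2.91 (-0.13 to 8.43), and Dkk1, on 12, 9 and 3 reads, gave 1.96 (0.067 to 4.42) and 1.91 (-0.091 to 4.43). Of these 6 ratios, the intervals of Sp5 in Smarca4.6 and Dkk1 in Smarca4.4 exclude 0.

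Wnt3a was -0.53 (-2.53 to 1.34) and -0.90 (-3.48 to 1.24), and Lgr5 was -0.53 (-2.53 to 1.34) and -0.48 (-2.70 to 1.49), so differences of several fold in either direction could not be seen for these genes.

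**Figure D2:**
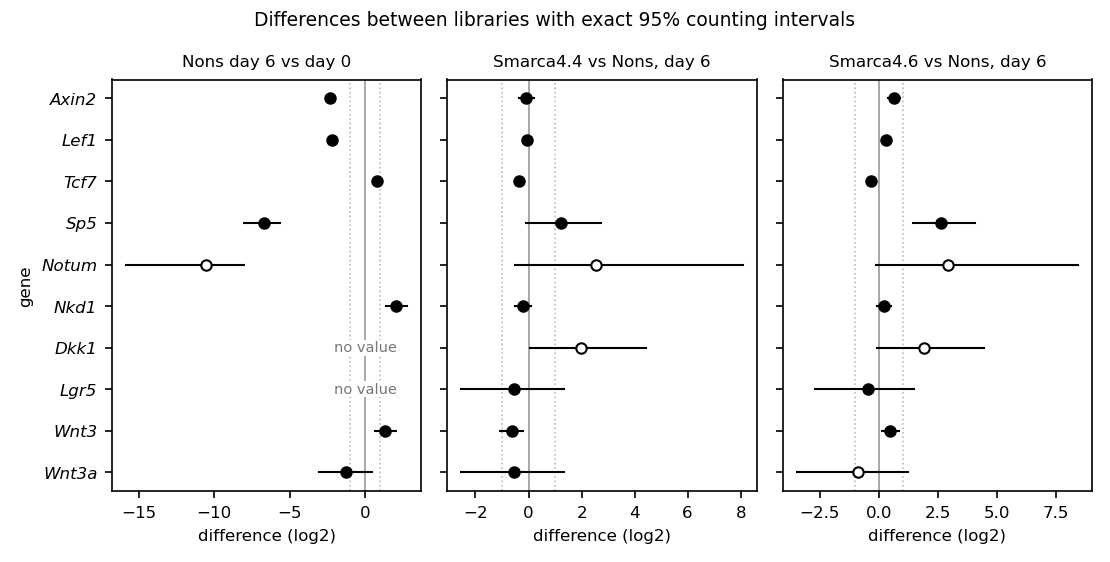
Log2 differences (horizontal axis, with a different range in each panel) of the 10 genes (rows), for Nons against day 0 and for each hairpin against Nons, with exact 95% counting intervals, a grey line at 0 and dotted lines at 2-fold. Open circles mark a library with 3 reads or fewer, and "no value" a comparison with 0 reads at day 0. Wnt3 lies at -0.64 with Smarca4.4 and at 0.48 with Smarca4.6, while Tcf7 lies at -0.36 and -0.33, and Sp5, Notum and Dkk1 lie above 0 with both hairpins.

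A direct comparison of the hairpin libraries does not involve Nons. Smarca4.4 was 2.18-fold lower than Smarca4.6 for Wnt3, a difference of -1.12 (-1.54 to -0.71) that was lower than those of 99.9% of the genes kept. It was also lower for Axin2, at -0.72 (-0.98 to -0.46), for Nkd1, at -0.42 (-0.72 to -0.11), and for Lef1, at -0.33 (-0.49 to -0.17). Tcf7, at -0.031 (-0.10 to 0.041), differed by no more than counting error, and its sign depends on the scaling (0.0025 when centred on the autosomal median). Of the 5 genes, 0 were at least 2-fold higher in Smarca4.4, against 0.415% of all genes kept, and 1 (Wnt3) was at least 2-fold lower, against 0.241%. With 1 CPM added the Wnt3 difference was -0.80, and no gene of the 5 reached 2-fold. Sp5 had 17 reads in Smarca4.4 and 35 in Smarca4.6, a difference of -1.41 (-2.34 to -0.54). These are the libraries in which Smarca4 RNA itself differed, by -0.40. Pluripotent cell markers summed to 820 CPM in Smarca4.4 and 1100 CPM in Smarca4.6, a gap made by Pou5f1 (701 and 982 CPM), and the median difference of the 7 genes was 0.099. Primitive streak markers (8 genes, with Mesp1 at 0 or 1 reads and Msgn1 at 0 in these libraries) summed to 31.2 and 31.9 CPM, nearly all from Eomes (29.5 and 27.3 CPM). Within that list T was lower in Smarca4.4 (0.255 and 2.49 CPM), as was Mixl1 (0.552 and 1.15 CPM). Gsc went the other way on few reads (9 and 5, or 0.191 and 0.137 CPM). The median of the 2 genes kept, T and Eomes, was -1.59. The part of cell composition in the differences was not tested.

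The other genes of the pathway were taken as 8 lists by role, which together hold 90 genes besides the 10, of which 66 passed the filter. Between day 0 and Nons, 23 of the 66 (34.8%) were at least 2-fold higher and 14 (21.2%) lower, with a median of 0.12. The shares of all genes kept, 19.6% higher and 12.3% lower, are the background for these and for the counts of each list. The filter averages 4 libraries, 3 of them from day 6, so genes read only at day 6 pass it more easily. Notum and the target gene Cdx1, read almost only at day 0 (32.1 and 29.4 CPM there), failed it. In the lists below the 10 genes are counted too, and Axin2, Nkd1, Nkd2, Lgr5, Notum, Rnf43 and Znrf3 each stand in 2 lists.

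Of 19 Wnt ligand genes, 9 passed the filter, of which 7 were higher at day 6 by at least 2-fold and 1 was lower, with a median of 3.36. Of those higher, Wnt4, Wnt7a, Wnt8a and Wnt10b had 1 to 3 reads at day 0 and passed through their day 6 levels. The filter itself therefore leans this count and median upward. Wnt4, needed for kidney and gonad formation, went from 3 reads to 875, a difference of 6.89 (5.34 to 9.17). Wnt7a went from 1 read to a log2 CPM of 1.40, and Wnt9a from 0.43 to 4.36 log2 CPM, a difference of 3.93 (3.36 to 4.56). Wnt6 was the ligand that was lower, with a difference of -1.41 (-2.07 to -0.74). Wnt3, at 1.30, was the smallest of the 7 differences, and Wnt9a, whose gene lies 16.2 kb from Wnt3a with 0 listed genes between, was read 937 times in Nons where Wnt3a was read 7 times.

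Secretion of all Wnt proteins passes through Porcn, which attaches the lipid, and Wls, which carries them to the cell surface. Porcn was 72.7 CPM at day 0 and 3.26 CPM in Nons, a difference of -4.48 (-4.74 to -4.24), and Wls was 18.5 and 63.7 CPM, a difference of 1.78 (1.62 to 1.95). The carrier and the enzyme therefore differed in opposite directions. Porcn lies on the X chromosome, which is subject to X inactivation as female mESCs differentiate. The part of X inactivation in its difference was not tested. Against Nons, Wls was also -0.59 (-0.68 to -0.51) with Smarca4.4 and -0.44 (-0.52 to -0.35) with Smarca4.6, without reaching 2-fold.

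Among 15 receptor and co-receptor genes, all of which passed the filter, 5 were higher at day 6 by at least 2-fold and 3 were lower, with a median of -0.076. Fzd2 was 4.66 higher (4.16 to 5.21), Fzd1 2.09 and Fzd4 2.03, while Fzd10 (-4.52), Fzd9 (-1.66) and Ror2 (-1.59) were lower. Fzd10, a Frizzled receptor, was read 550, 59, 148 and 121 times in the order day 0, Nons, Smarca4.4, Smarca4.6. Like Sp5, it was lowest in Nons, and it was 1.28 (0.84 to 1.74) higher in Smarca4.4 and 1.36 (0.90 to 1.84) higher in Smarca4.6, both above 2-fold. In the R-spondin list 4 of 9 genes passed, of which 2 were higher and 1 lower (Znrf3, -1.0). Those higher were Rspo1, by 4.94 from 4 reads at day 0, and Rnf43, by 3.53 from 9 reads. Rnf43 and Znrf3 are ligases that remove Frizzled receptors from the surface.

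Of 14 secreted inhibitor genes, Dkk1 and Notum included, 4 passed, of which 1 was higher (Sfrp2, 2.07) and 2 lower (Apcdd1, -2.80, and Sfrp1, -1.48). Among 15 genes of the destruction complex and its relay, 3 were higher and 2 lower, with a median of -0.24. Besides Axin2 and Nkd1 these were Apc2 (2.88, from 7 reads at day 0), Dvl1 (1.48) and Btrc (-1.13). Ctnnb1, which encodes beta-catenin, kept a log2 CPM between 9.49 and 9.86 in the 4 libraries. Among TCF factors and nuclear partners 12 of 13 passed, with 2 higher (Bcl9, 1.39, and Ctnnbip1, 1.34) and 3 lower (Lef1, Pygo1, -1.66, and Tle3, -1.36).

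The list of further targets, 20 genes with 15 kept, had 6 higher and 5 lower at day 6, with a median of 0.51. Msx1 was 4.59 higher and Cdx4 3.51 higher, the latter from 3 reads at day 0. The gene T, which encodes the mesoderm factor brachyury, was lower, with a difference of -3.90 (-4.70 to -3.17), as were Tnfrsf19 (-3.30) and Ccnd1 (-1.65). Myc, which drives growth, was 2.80 (2.48 to 3.14) higher. Cdx1, a caudal-type homeobox target that did not pass the filter and was chosen after its values were seen, was read 546, 1, 11 and 12 times, in the manner of Notum.

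**Figure D3:**
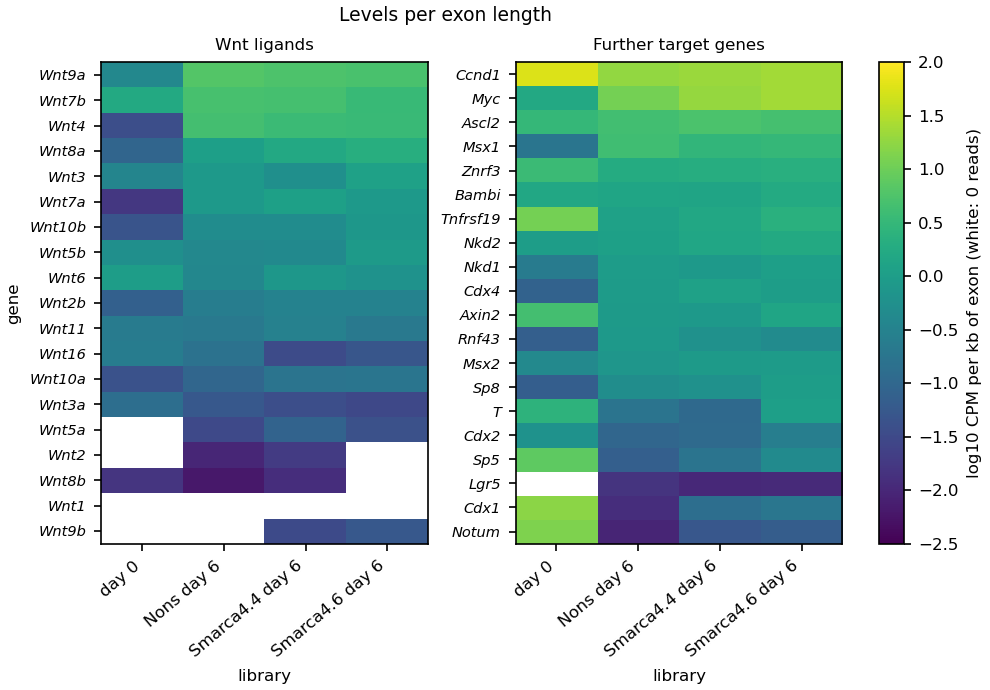
Levels of the 19 Wnt ligand genes and the 20 further target genes (rows, ordered by the Nons level) in the 4 libraries (columns), as CPM per kb of exon with colour on a log10 scale and white for 0 reads. Wnt3 and Wnt3a stand among the ligands and Sp5, Axin2, Nkd1, Lgr5 and Notum among the targets, and Notum (13.3), Sp5 (7.60) and Cdx1 (16.8) are bright in the day 0 column and dark in the Nons column.

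**Figure D4:**
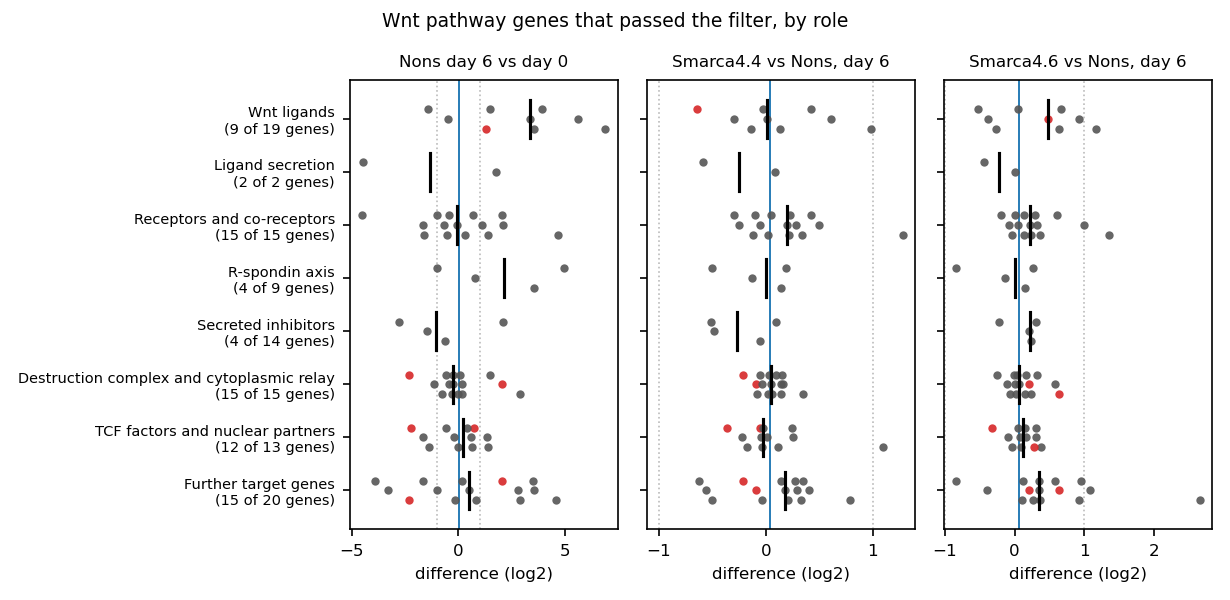
Log2 differences (horizontal axis, with a different range in each panel) of the genes kept in each of the 8 pathway lists (rows), for Nons against day 0 and for each hairpin against Nons. Each dot is 1 gene, red for those of the 10 genes that passed the filter, with a black bar for the list median, a blue line for the median of all genes kept and dotted lines at 2-fold. The differences from day 0 spread to both sides in most lists, and with the hairpins few genes pass 2-fold, Fzd10 (1.28 and 1.36) with both.

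Against Nons, 2 of the 66 other pathway genes were at least 2-fold higher in Smarca4.4 (Fzd10 and Pygo1) and 4 in Smarca4.6 (Fzd10, Wnt5b, T and Myc), and 0 were lower in either. Among all genes kept, 0.882% and 1.03% were at least 2-fold higher, and 0.309% and 0.799% lower. Of the 66, 41 (62.1%) were above 0 in Smarca4.4, with a median of 0.073, and 49 (74.2%) in Smarca4.6, with a median of 0.15, against 56.5% and 58.9% of all genes kept. Pygo1, a partner of the beta-catenin complex, was 1.10 (0.73 to 1.49) with Smarca4.4 and 0.31 (-0.14 to 0.76) with Smarca4.6. T was -0.63 (-1.81 to 0.51) with Smarca4.4 and 2.66 (1.92 to 3.48) with Smarca4.6, from 12 and 91 reads against 18 in Nons. Myc was higher in both, by 0.79 (0.69 to 0.88) and 1.08 (0.98 to 1.17). By list, the median differences (Smarca4.4 first, Smarca4.6 second) were 0.013 and 0.48 for ligands, -0.25 and -0.22 for secretion, 0.20 and 0.22 for receptors, 0.009 and 0.0051 for the R-spondin axis, -0.27 and 0.22 for secreted inhibitors, 0.051 and 0.065 for the destruction complex, -0.03 and 0.12 for nuclear factors, and 0.18 and 0.35 for further targets.

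Among genes outside the pathway lists, the pattern over the 4 libraries nearest to each of 4 of the genes was found from log2 CPM values centred per gene. The nearest was Mypn for Lef1, at a Euclidean distance of 0.0443, Atpif1 for Tcf7 (0.0254), Slc25a27 for Nkd1 (0.0691) and 2610019E17Rik for Wnt3 (0.217). With 4 libraries such likeness is common for flat patterns, and 3133 genes lay within 0.5 of Tcf7. The patterns of Axin2, with 83 genes within 0.5, and Wnt3, with 30, were shared by fewer.

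By position, 5 of the 10 genes (Axin2, Tcf7, Wnt3, Wnt3a and Notum) lie on chromosome 11, of which Wnt3a and Notum did not pass the filter. Chromosome 11 carries 8.26% of the genes kept, and its share of all genes listed was not counted. These genes did not share a pattern, since Axin2 and Notum were highest at day 0, Tcf7 in Nons and Wnt3 in Smarca4.6.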

How the data were processed

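RNA-seq was performed on 4 libraries, 1 per group, with groups taken from the sample titles. The authors trimmed paired 75-base reads, aligned them with hisat2 (tophat is also named) to mm10 with positions that differ between the strains masked, and quantified genes in SeqMonk. The submitters' processing notes name bcl2fastq, HISAT2 and mm10. The strand setting is not given in the sources used here. The deposited values are log2 CPM (log2 rpm in SeqMonk), made by the authors from reads scaled to each library total, with both alleles combined.

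Values were whole multiples of 1 step in each library (99.94% to 99.98% within 0.05 of a read), which gave the reads and totals, with 0.9 of a step standing for 0 reads. Differences are between deposited log2 CPM values. Intervals are exact 95% binomial intervals on the reads and cover counting error only. Genes with a mean log2 CPM of at least 0 were kept, and differences of at least 2-fold were counted. No test was made, because each group holds 1 library.

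The 10 genes and all lists were chosen with earlier results of these data known. Besides the 10, the genes named are, per list, up to 3 with the largest differences in each direction from day 0 among those at least 2-fold different, all at least 2-fold different with a hairpin, nearest-pattern genes, Smarca4 and markers. The nearest-pattern gene of Axin2 is not reported here. Symbols were matched to GENCODE M21 and RefSeq (Amer1 is listed as Fam123b). Guides came from the study's oligonucleotide list, and promoter sequences from RefSeq. Computations were tested on artificial reads. Alternatives were no filter, a mean log2 CPM of at least 3, a 1.5-fold limit, 1 CPM added, median-of-ratios scaling, centring on the autosomal median and, added after seeing the data, at least 1 CPM in at least 1 library. Python 3.11.15, numpy 2.4.6, pandas 2.3.3, scipy 1.17.1 and matplotlib 3.10.9 were used.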

Additional observations from a re-analysis of the deposited data

Results flagged for a closer look

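Wnt3 differed from Nons in opposite directions in the Smarca4 hairpin libraries, by -0.64 in Smarca4.4 and by 0.48 in Smarca4.6 on the log2 scale. The difference between the hairpins was not tested, since each has 1 library.

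Y-linked genes were read at day 6 in cells labelled female, and had 0 reads at day 0. Ddx3y was read 83 (Nons), 96 (Smarca4.4) and 107 (Smarca4.6) times. In the same order Uty was read 10, 33 and 38 times and Eif2s3y 13, 27 and 20 times. Their part in the Wnt gene levels was not tested.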

How the results depend on the processing

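Directions and calls depended mainly on how low values were filtered. In Nons against day 0, the median of the Wnt genes kept turned from 0.74 to -2.22 at a mean log2 CPM of at least 3 (9619 genes, with Axin2, Lef1 and Tcf7 left), to -0.43 with no filter (all 10, where Dkk1 and Lgr5, at 0 reads at day 0, enter at the deposited placeholder) and to -2.22 at 1 CPM in at least 1 library (14443 genes, 7 of the 10, with Sp5 and Notum added). The count higher was 0 at a mean of 3 and 1 with 1 CPM added, and the count lower was 5 with no filter and 4 at 1 CPM in at least 1 library. For Smarca4.4 against Nons, the count higher was 3 and 2 under these last 2 filters, the count lower was 1 at 1.5-fold, and the median was -0.089 both at a mean of 3 and at 1 CPM in 1 library. For Smarca4.6, the count higher was 3, 2 and 1 (no filter, 1 CPM in 1 library, 1.5-fold), and the median was 0.48 at 1 CPM in 1 library. For Smarca4.4 against Smarca4.6, the count lower was 2 under these same settings, and 0 at a mean of 3 and with 1 CPM added. The filters changed which genes entered, whereas 1.5-fold and 1 CPM added kept the same 5. The median of the other pathway genes, day 6 against day 0, was -0.02 at a mean of 3. In 59 other cases the counts of the 10 stayed within 1.5 times and their medians within 0.1 of the values given. For single genes and the other lists, 188 cases were counted as unchanged, 61 as moved and 1 as reversed. Scaling by median ratios or on the autosomal median moved the median of all genes by at most 0.073.

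No paired analysis was possible because every group is a single library and the replicate number is the same throughout. For the same reason no library was left out in turn. Depth limits Dkk1, Lgr5, Wnt3a, Notum and Sp5 at day 6, and counting intervals hold no variation between cultures.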

Other observations

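Among pathway genes other than the 10, 2 of 66 were at least 2-fold lower in Smarca4.4 than in Smarca4.6 and 0 were higher, against 0.241% and 0.415% of all genes kept. They were T, with 12 reads against 91, a log2 difference of -3.29 (-4.30 to -2.42), and the ligand Wnt5b, with 54 reads against 86, a difference of -1.04 (-1.56 to -0.53). T was also the lowest difference of all genes kept in that comparison. Of the other genes of the primitive streak list, Mixl1 (0.552 and 1.15 CPM) was also lower in Smarca4.4. Foxa2 (0.106 and 0.219 CPM, from 5 and 8 reads) and Gsc (0.191 and 0.137 CPM, from 9 and 5 reads) differed in opposite directions, each with overlapping counting intervals. Tbx6 was 0.53 and 0.603 CPM, and Eomes was 29.5 and 27.3 CPM. Rnf43, which was 3.53 higher in Nons than at day 0, lay below Nons in both, at -0.50 (-0.78 to -0.22) with Smarca4.4 and -0.84 (-1.17 to -0.52) with Smarca4.6. Tnfrsf19, a receptor gene that was lower in Nons than at day 0, was above Nons by 0.40 (0.17 to 0.64) and 0.93 (0.70 to 1.16). All values are from 1 library per group, and those against Nons share that library.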
